A study of Homo sapiens with 4 samples.

Results

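The genes described here are 37 nuclear genes whose products form or regulate respiratory complexes II to V, together with CYCS, the gene of cytochrome c. They were listed by function and matched by symbol among the 58884 genes of the count tables, and all 37 had enough counts to be tested, out of 19686 genes tested. The list holds 4 genes of complex II, 8 of complex III, cytochrome c, 10 of complex IV and 14 of complex V. RNA sequencing was done on HCT-116, a human colorectal carcinoma line, in 2 control libraries and 2 libraries of RALY knockdown cells. RALY is an hnRNP family protein that binds RNA. The treatment protocol of every library names a 72 h exposure to lentivirus with polyprene, carrying a short hairpin RNA that was either directed at RALY or nonsilencing. The control titles read WT and their source entries read untreated, so the labels leave unsettled which hairpin, if any, the control cells had. The source entries write HCT-117 for replicate 2 of both groups, and the cell line field gives HCT-116 for every library. The sources used here do not give the hairpin sequence. Since separate cultures are not stated for libraries of 1 group, every p-value below is set against the spread of these libraries alone, and that spread may be technical.

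The respiratory chain sits in the inner mitochondrial membrane. Complex II takes electrons from succinate and complex III passes them from ubiquinol to cytochrome c, a small soluble carrier. Complex IV hands them to oxygen, complexes III and IV move protons across the membrane, and complex V, the ATP synthase, makes ATP as the protons return. Apart from complex II, these complexes mix subunits from the nucleus with a few encoded in mitochondrial DNA, and nuclear respiratory factor 1 (NRF1) and the GA-binding protein (GABPA with GABPB1) are known regulators of many of the nuclear subunit genes.

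Promoter sequence is shown here because NRF1 was itself lower in the knockdown libraries, as described further on. RefSeq promoter windows of GRCh38.p14, from 250 bases before to 50 after the gene start, were found for 30 of the 37 genes. No window was matched for SDHC, UQCRB, COX6C, ATP5F1B, ATP5F1D, ATP5MF and DMAC2L. The NRF1 motif has 10 letters with 1 position free, is seen in capitals in the UQCRFS1 stretch below, and was searched on both strands. It was present in 8 of the 30 windows (26.7%), against 6.28% of all 27305 windows of the same length. The 8 genes were SDHA, SDHD, UQCRC1, UQCRFS1, UQCR10, UQCR11, ATP5F1C and ATP5PO. On both strands, the GABPA motif CCGGAAGT was present in 7 of 30 (23.3%, against 4.44% of all windows), the YY1 motif AAGATGGCG in 3 (10.0%, against 1.85%) and the ESRRA motif TCAAGGTCA in 1 (3.33%, against 0.359%). At least 1 of the 4 motifs was found in 15 of the 30 windows. The 4 stretches below lie upstream of the RefSeq start and outside every exon of GENCODE release 44 and of the deposited tables. They show an NRF1 match, both motifs, a GABPA match and no match, with matches of either strand in capitals. UQCRFS1 has an NRF1 match in chr19:29213152-29213234 on the minus strand, and UQCR11 has a GABPA and an NRF1 match in chr19:1605474-1605593 on the minus strand. COX8A has a GABPA match in chr11:63974500-63974619 on the plus strand, and ATP5IF1 has no match in chr1:28235989-28236108 on the plus strand. A match describes the letters and is neither a shown binding site nor a cause.
UQCRFS1: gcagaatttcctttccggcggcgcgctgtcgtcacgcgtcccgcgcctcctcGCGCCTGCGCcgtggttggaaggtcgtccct
UQCR11: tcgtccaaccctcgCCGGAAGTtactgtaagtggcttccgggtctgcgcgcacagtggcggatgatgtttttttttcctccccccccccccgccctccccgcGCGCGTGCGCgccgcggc
COX8A: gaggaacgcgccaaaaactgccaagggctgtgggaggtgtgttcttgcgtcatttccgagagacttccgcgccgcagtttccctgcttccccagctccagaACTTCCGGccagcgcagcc
ATP5IF1: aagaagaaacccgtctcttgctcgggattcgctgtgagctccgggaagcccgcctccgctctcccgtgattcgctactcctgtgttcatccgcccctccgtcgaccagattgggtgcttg

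The targeted gene followed the labels. RALY counts were 1903 and 2132 in control 1 and control 2 and 634 and 522 after knockdown, or 134 ± 14.8 against 37.3 ± 3.15 CPM (counts scaled to 1000000 per library, SD, n = 2 each). It fell by 1.84 on the log2 scale (SE 0.127, edgeR quasi-likelihood test, adjusted p = 6.59e-06). Library totals lay between 13360007 and 16847520 counts. Of 8 colon epithelial markers, EPCAM, CDH1, KRT8, KRT18, KRT19, CLDN4 and CDX2 had 385 counts or more in every library and VIL1 had 11 to 14. The fibroblast markers COL1A2 and LUM and the leukocyte marker CD3E had 4 counts or fewer in every library, and the highest of the 5 fibroblast markers was PDGFRB, at 200 to 342 counts. The part of these markers in the results below was not tested. Of 5 markers for the lentivirus packaging line HEK293T, CRABP2 had 1271 to 1406 counts and NEFH, at 6 and 9 against 44 and 46 counts, was the only one called. Of the colon list, only CDX2 was called, lower by 0.47 (edgeR adjusted p = 0.0311).

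Counts of abundant short genes levelled off in these tables, and the 37 genes are mostly of that kind. Occupancy is used here for the mean count as a percent of 2 counts per base of the canonical transcript. It ran from 6.44% for UQCRB to 107% for COX4I1 with a median of 48.3%, and it was over 50% for 18 genes, or for 25 when the shortest transcript with the same coding sequence was used. Control 2 was 1.26 times as deep as control 1 by library totals, and 1.31 times by the scaled totals used for CPM. The median gene of the 37 had only 1.11 times as many counts in control 2, and 35 of the 37 therefore had a lower CPM in control 2 than in control 1, the exceptions being SDHC and UQCRB. Among all tested genes with at least 100 counts in both controls, the share called in either direction was 35.3% at an occupancy under 10% and 6.05% at 75% or more. Why the share called fell with occupancy was not tested. Where counts level off, a change in an abundant member can be understated, and differences of level between members can be compressed.

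**Figure D1:**
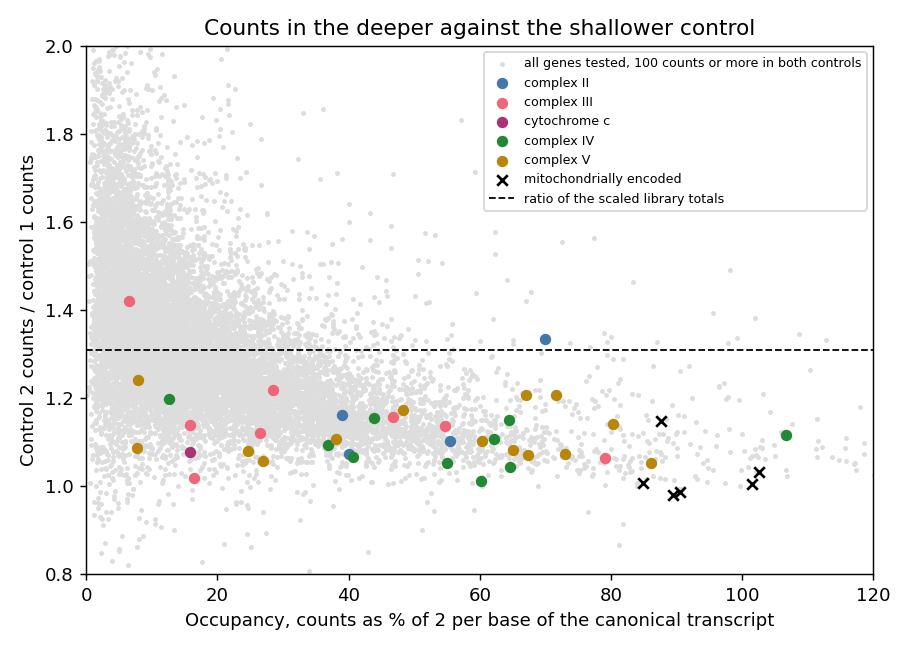
Each point is a gene, with occupancy in percent on the x axis and the ratio of its counts in control 2 to control 1 on the y axis, which is shown from 0.8 to 2 so that grey points outside are not drawn. Grey points are all tested genes with at least 100 counts in both controls, coloured points are the 37 genes by complex, crosses are 6 mitochondrially encoded subunits and the dashed line is the ratio of the scaled totals, 1.31. Most coloured points lie below the line, and SDHC, at 1.33, lies on it.

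Across the 37 genes, 4 were lower in the knockdown libraries and 0 were higher (edgeR quasi-likelihood test, adjusted p under 0.05 over all genes tested). The lower genes were SDHC, UQCRC1, UQCRC2 and ATP5F1D. They make up 10.8% of the list, beside 25.6% of all genes called, 13.1% called lower and 12.5% called higher. The share lower was near that of all tested genes, which is not matched to the members for occupancy. Of the genes with at least 100 counts in both controls, 18.2% were called either way at 25 to 50% occupancy and 6.39% at 50 to 75%. No member was among the genes called higher. SDHA, not called, also had an unadjusted p under 0.05. The fitted change was below 0 for 33 of 37 members, beside 48.6% of all tested genes, and above 0 for COX4I1, COX6C, ATP5F1E and ATP5MC2. CYCS, ATP5F1A, ATP5F1B, ATP5F1C, ATP5MF, ATP5MG and DMAC2L lay only at -0.03 to -0.04. The 6 mitochondrially encoded subunits, whose counts hardly differed between the controls (median ratio 1.01), were also all fitted below 0, from -0.05 to -0.01. A sign below 0 is thus not by itself a fall. The median change was -0.13 on the log2 scale, against 0.01 over all tested genes, and members ran from -0.65 to 0.18. The CPM of control 1 was the higher control value in 35 of the 37, and the median was -0.04 without control 1 and -0.25 without control 2. The number of members with a fitted change below 0 was 24 without control 1 and 36 without control 2.

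The spread between the controls was as large as most of the differences. The groups did not overlap in CPM for 17 of 37 members, beside 63.6% of all tested genes. For 25 of 37 members the gap between the 2 controls was larger than the gap between the group means. The summed CPM of all members was 2968 and 2546 for the controls against 2435 and 2511 after knockdown. Control 1 stood well above the other libraries and control 2 lay just above both knockdown libraries. In bulk RNA, less RNA per cell and fewer cells expressing a gene cannot be told apart.

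**Figure D2:**
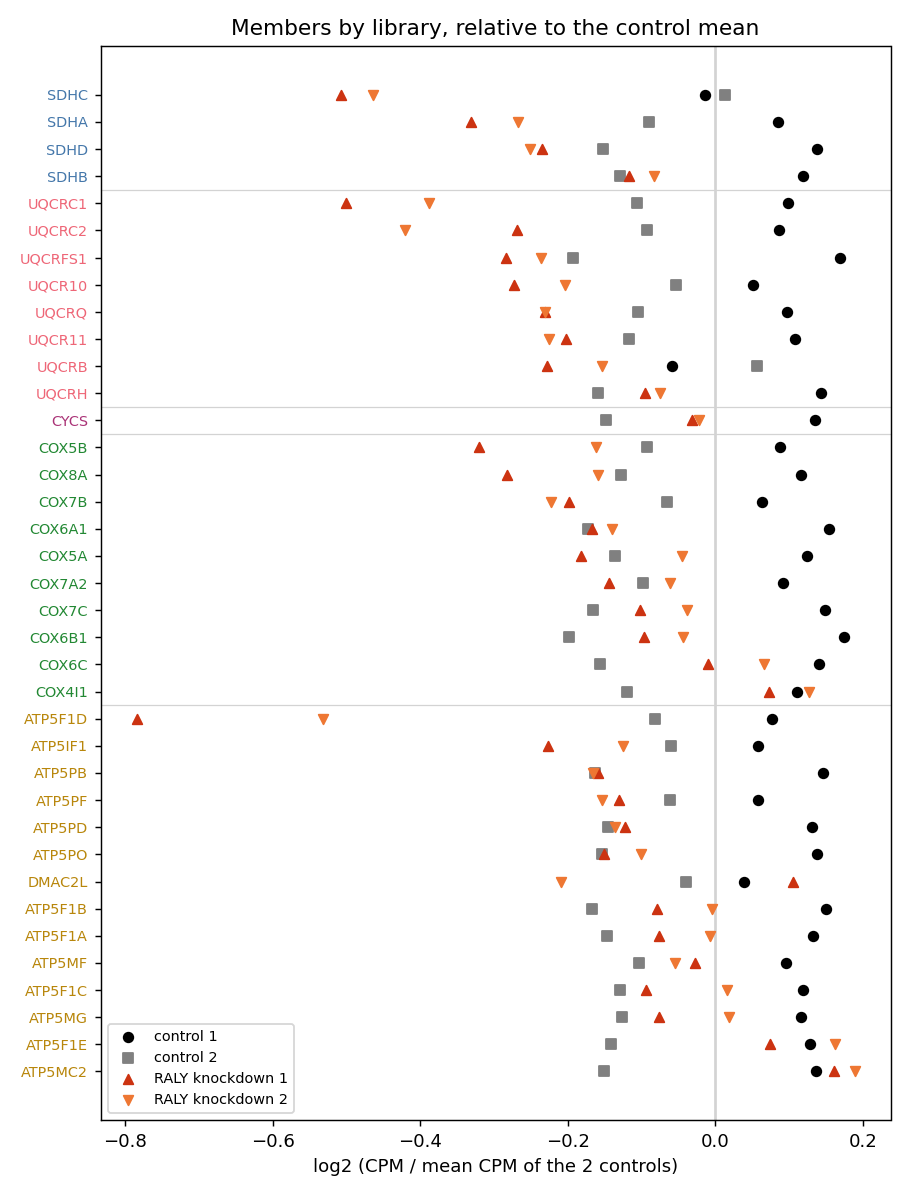
The log2 ratio of each library's CPM to the mean CPM of the 2 controls is on the x axis and the 37 genes are in rows, grouped by complex. Circles and squares are controls 1 and 2, and triangles are the knockdown libraries. The knockdown libraries stand apart from both controls by the widest margin for ATP5F1D, SDHC and UQCRC1, while for most genes of complexes IV and V they lie between the 2 controls or next to control 2.

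In complex II, SDHC was lower and all 4 genes had a fitted change below 0. The groups did not overlap for 3 of the 4, beside 63.6% of all tested genes. The median change of the 4 genes was -0.27 on the log2 scale. SDHC encodes 1 of the membrane anchors that bind the haem and ubiquinone. SDHC gave 138 and 141 CPM in the controls and 97.9 and 101 CPM in the knockdown libraries. Both knockdown libraries were below both controls, and the libraries of each group lay close together. SDHC fell by 0.49 on the log2 scale (SE 0.107, 95% interval -0.72 to -0.25, edgeR adjusted p = 0.00637), to 71.4% of the control level. Its counts were 1820 and 2429 against 1570 and 1501, so control 2 had 1.33 times the counts of control 1, near the ratio of 1.31 between the scaled totals.

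SDHA, the flavoprotein that oxidises succinate, gave 161 and 143 CPM in the controls and 121 and 126 CPM in the knockdown libraries. The groups did not overlap, the change was -0.30 on the log2 scale (SE 0.114, 95% interval -0.55 to -0.05), and it did not pass the test (edgeR adjusted p = 0.0736). With plain library totals, the value was called (edgeR adjusted p = 0.0391). The SDHA counts are uncertain: 21.6% of its exon bases are shared with another gene on the same strand, and the pseudogenes SDHAP1, SDHAP2, SDHAP3 and SDHAP4 together carried 83.0% as many counts as SDHA. SDHD, the other membrane anchor, changed by -0.24 without overlap between groups (edgeR adjusted p = 0.182), and its pseudogene SDHDP6 had a mean of 72 counts. SDHB, the iron-sulphur subunit, changed by -0.10 with overlapping groups (edgeR adjusted p = 0.600). The summed CPM of complex II was 466 and 422 for the controls against 354 and 363 after knockdown, without overlap.

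In complex III, both core proteins were lower and all 8 genes had a fitted change below 0. The groups did not overlap for 7 of the 8, beside 63.6% of all tested genes. The median change was -0.23 on the log2 scale. UQCRC1 and UQCRC2 are the large core subunits that face the matrix. UQCRC1 gave 141 and 123 CPM in the controls and 93.2 and 101 CPM in the knockdown libraries. It fell by 0.44 on the log2 scale (SE 0.117, 95% interval -0.70 to -0.19, edgeR adjusted p = 0.0154), with no overlap and a level of 73.6% of control. UQCRC2 gave 139 and 123 CPM against 109 and 98.0 CPM. It fell by 0.34 (SE 0.117, 95% interval -0.60 to -0.09, edgeR adjusted p = 0.0478), to 78.9% of control, close to the threshold. With offsets for GC content and length, UQCRC1, whose GC content is 58.3%, was no longer called (-0.29, edgeR adjusted p = 0.0659), while UQCRC2 kept its call.

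The other 6 genes of complex III did not pass the test. UQCRFS1, the Rieske iron-sulphur protein, gave 81.9 and 63.7 CPM in the controls and 59.8 and 61.9 CPM in the knockdown libraries, a change of -0.26 (95% interval -0.55 to 0.04, edgeR adjusted p = 0.184). Control 1 stood apart, and control 2 lay just above the knockdown libraries. UQCR10 changed by -0.24, UQCRQ by -0.23, UQCR11 by -0.21 and UQCRB by -0.19, all small subunits and all without overlap. UQCRB was 1 of the 2 members in which control 2 was the higher control, with 72.5 and 78.6 CPM in the controls and 64.5 and 67.9 CPM in the knockdown libraries, and it was called under GC and length offsets (-0.38, edgeR adjusted p = 0.0283). UQCRH, the hinge protein that binds cytochrome c1, overlapped at -0.08, and its near-identical copy UQCRHL, with 173 and 224 against 186 and 186 counts, makes its value uncertain. The summed CPM of complex III was 627 and 552 for the controls against 483 and 486 after knockdown, without overlap.

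Cytochrome c itself did not pass the test. CYCS gave 125 and 103 CPM in the controls and 112 and 112 CPM in the knockdown libraries, so both knockdown libraries lay between the controls. The change was -0.03 on the log2 scale (SE 0.121, 95% interval -0.29 to 0.24, edgeR adjusted p = 0.906). Its occupancy was 15.9% on the canonical transcript and 108% on the shortest transcript with the same coding sequence.

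In complex IV, none of 10 genes was called in either direction, and none had an unadjusted p under 0.05 (edgeR quasi-likelihood test; DESeq2 also called none). The fitted change was below 0 for 8 of 10, with a median of -0.11. The groups did not overlap for 3, COX5B, COX7B and COX8A, beside 63.6% of all tested genes. COX5B, a nuclear subunit that binds zinc, gave 45.7 and 40.3 CPM in the controls and 34.4 and 38.5 CPM in the knockdown libraries. Its change was -0.24 (SE 0.140, 95% interval -0.54 to 0.07, edgeR adjusted p = 0.236). COX7B, a small membrane subunit, gave 45.1 and 41.2 CPM against 37.6 and 37.0 CPM, a change of -0.21 (SE 0.133, 95% interval -0.50 to 0.08, edgeR adjusted p = 0.274). The lower control lay close to the higher knockdown library for COX5B, at 40.3 against 38.5 CPM. For COX7B these values were 41.2 and 37.6 CPM.

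The remaining complex IV genes were at most 0.22 below 0 and 0.10 above it. COX8A changed by -0.22, and its counts are uncertain because 35.4% of its exon bases are shared with another gene on the same strand. COX6A1 changed by -0.15, COX5A by -0.11, COX7A2 by -0.10, and COX7C and COX6B1 by -0.07 each, all with overlapping groups. COX6C, at 0.03, and COX4I1, at 0.10, had fitted changes above 0 with overlap. COX4I1, the largest nuclear subunit, had an occupancy of 107%, at which a change cannot be read from these counts. The pseudogene COX6A1P2 had a mean of 107 counts, which bears on COX6A1. The summed CPM of complex IV overlapped between groups, at 550 and 461 for the controls against 467 and 491.

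In complex V, ATP5F1D was lower and the other 13 genes were not called. ATP5F1D encodes the delta subunit of the central stalk, which turns inside the catalytic head. It gave 81.4 and 72.9 CPM in the controls and 44.8 and 53.4 CPM in the knockdown libraries, with all 4 libraries apart by group. It fell by 0.65 on the log2 scale (SE 0.129, 95% interval -0.93 to -0.37, edgeR adjusted p = 0.00354), to 63.6% of control, and this was the furthest below 0 of the 37 genes. Its GC content was 69.5%, and with GC and length offsets the change was -0.32 and was not called (edgeR adjusted p = 0.055).

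ATP5MC2, a gene of the c subunit of the proton-driven ring, gave 62.5 and 51.2 CPM in the controls and 63.6 and 64.8 CPM in the knockdown libraries, the knockdown libraries being above both controls. Its change was 0.18 (SE 0.129, 95% interval -0.10 to 0.46, edgeR adjusted p = 0.345), and with counts corrected for levelling off it was called at 0.40 (edgeR adjusted p = 0.0328). ATP5F1A, ATP5F1B and ATP5F1C, of the alpha, beta and gamma subunits, were each at -0.04, with overlapping groups; ATP5F1B gave 224 and 180 CPM against 191 and 201 CPM at an occupancy of 86.1%. ATP5IF1, the inhibitor of ATP hydrolysis by the synthase, changed by -0.17 without overlap (edgeR adjusted p = 0.349), and by -0.36 with the same correction (edgeR adjusted p = 0.0495). The peripheral stalk genes ATP5PB, ATP5PF, ATP5PD and ATP5PO lay between -0.16 and -0.12, and only ATP5PF of these did not overlap. DMAC2L, ATP5MF and ATP5MG lay between -0.04 and -0.03, and ATP5F1E, the epsilon subunit, at 0.12, all with overlap.

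Counts of ATP5F1E, ATP5PF and ATP5PO are uncertain, since 23.2%, 23.1% and 21.6% of their exon bases are shared with other genes, TUBB1 on the opposite strand of ATP5F1E and GABPA and JAM2 on the opposite strand of ATP5PF, and the sources used here do not say whether counting used strand. The summed CPM of complex V was 1201 and 1007 for the controls against 1020 and 1057 after knockdown, with overlap. The complexes were not tested against each other. Among members at 50% occupancy or less by both lengths, 1 of 12 was lower (8.33%) and the median change was -0.22. Among the other 25, 3 were lower (12.0%) and the median was -0.10. Of all tested genes, 13.1% were called lower, a share that is not matched for occupancy.

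**Figure D3:**
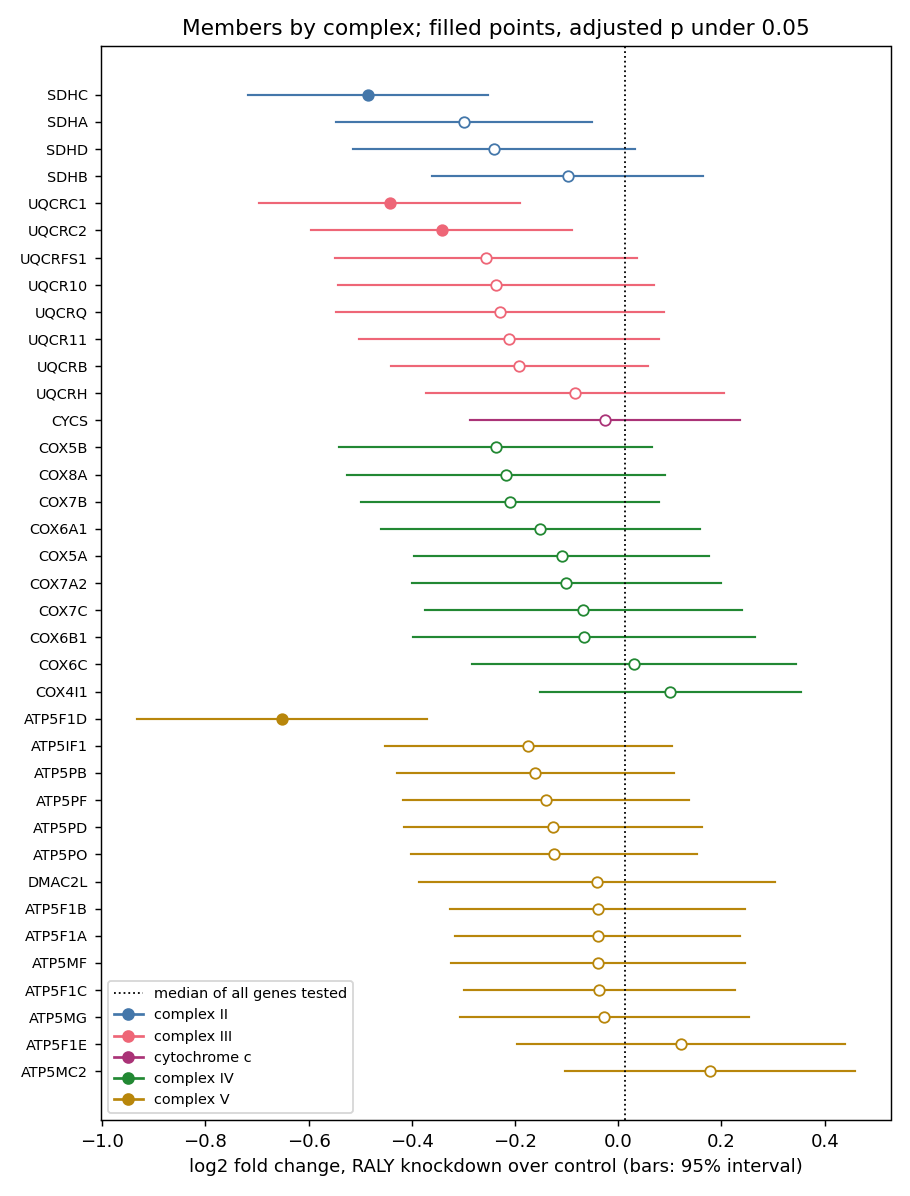
The log2 fold change of knockdown over control is on the x axis with its 95% interval as a bar, and the 37 genes are in rows, coloured by complex. Filled points have an adjusted p under 0.05 over all genes tested, and the dotted line is the median of all tested genes, 0.01. The 4 filled points, SDHC, UQCRC1, UQCRC2 and ATP5F1D, lie between -0.65 and -0.34.

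Levels were compared between genes per length of the canonical transcript, in counts per kb averaged over the 4 libraries. In complex II the range ran from SDHA at 779 to SDHC at 1399 counts per kb. In complex III it ran from UQCRB at 129 to UQCRH at 1583, in complex IV from COX7B at 252 to COX4I1 at 2135, and in complex V from ATP5F1E at 155 to ATP5F1B at 1721 counts per kb. The upper ends are limited by the levelling off. On the shortest transcript with the same coding sequence, SDHA, UQCRB and COX7B kept their values and ATP5F1E was at 802 counts per kb.

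The calls of the 4 lower genes rested on both controls. Without control 1 none of them was called (edgeR adjusted p = 0.055 for SDHC, 0.144 for UQCRC1, 0.251 for UQCRC2 and 0.0833 for ATP5F1D), and without control 2 none was called either (edgeR adjusted p = 0.0739, 0.0579, 0.105 and 0.0546 in the same order). The changes were -0.54, -0.38, -0.29 and -0.61 without control 1 and -0.49, -0.56, -0.44 and -0.74 without control 2. Over all genes, 340 were called higher and 668 lower without control 1, and 476 higher and 508 lower without control 2, against 2470 and 2578 with all libraries. The direction was the same for all 4 in every setting in which they could be fitted. When counts were corrected for repeated positions, which assumes that at most 2 reads are kept per base, 6 members were lower and 1 was higher. ATP5IF1 and SDHA joined the lower genes, and ATP5MC2 was the higher one. SDHC moved from -0.49 to -1.09 under that correction, but the size of that value is uncertain. Control 2 held 2429 SDHC counts on a transcript of 1308 bases, close to 2 per base, where the correction grows steeply. Before correction, SDHC had 1.33 times the counts in control 2, near the ratio of 1.31 between the scaled totals. COX4I1 could not be fitted because its occupancy was over the cap of 95%.

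**Figure D4:**
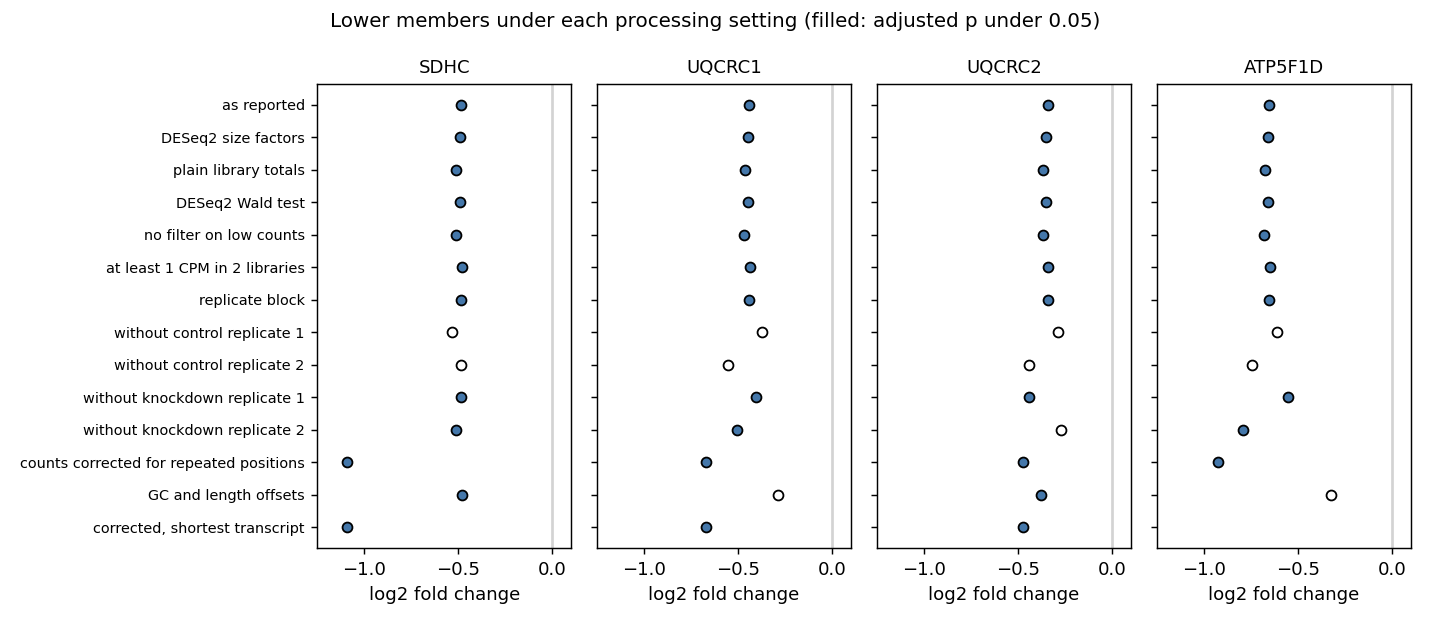
The log2 fold change of SDHC, UQCRC1, UQCRC2 and ATP5F1D is on the x axes and the processing settings are in rows, with filled points where the adjusted p was under 0.05. Every point is below 0, the points without control 1 or control 2 are open for all 4 genes, and ATP5F1D has no point in the last row because it could not be fitted there.

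The rest of the pathway was described from a list of 81 genes, of which 75 were tested. It holds further subunits, assembly factors, regulators and 6 mitochondrially encoded subunits. Of the 75, 12 were lower (16.0%) and 2 were higher (2.67%), beside 13.1% and 12.5% of all tested genes, with a median of -0.05. The 6 genes with too few counts were COX4I2, COX6A2, COX7A1, COX7B2, COX8C and PPARGC1A.

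Assembly factors of the complexes held the furthest falls in the counts as deposited. Their median occupancy was 16.2% to 22.3% by complex, against 48.3% for the 37 genes. Changes of the 37 can be more understated where counts level off, and the part of this in the comparison was not tested. SDHAF4, which helps to join SDHA to SDHB, had 192 and 249 counts against 61 and 61, or 14.6 and 14.4 against 3.81 and 4.10 CPM. It fell by 1.87 on the log2 scale (SE 0.230, edgeR adjusted p = 0.000212), to 27.3% of control. The other 3 complex II factors, SDHAF1, SDHAF2 and SDHAF3, were not called. UQCC3, a factor for cytochrome b in complex III, gave 31.5 and 25.6 against 11.1 and 10.6 CPM and fell by 1.39 (SE 0.189, edgeR adjusted p = 0.000390), with 29.2% of its exon bases shared with other genes. UQCC2, which acts on cytochrome b as well, fell by 0.47 (edgeR adjusted p = 0.0314), with 24.1% shared, and the other 7 factors of complex III were not called. UQCC2 lost its call with GC and length offsets (-0.37, edgeR adjusted p = 0.0738) and without knockdown 2 (-0.34, edgeR adjusted p = 0.111).

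For complex IV, 5 of 30 factors were lower (16.7%) and none was higher, beside 13.1% and 12.5% of all tested genes. COX18, which inserts a mitochondrially made subunit into the membrane, gave 36.1 and 36.4 CPM in the controls and 22.0 and 19.0 CPM in the knockdown libraries and fell by 0.82 (SE 0.156, edgeR adjusted p = 0.00273). OXA1L, the general inner membrane insertase, fell by 0.48 (edgeR adjusted p = 0.0119). The further factors COX19, SCO2 and CMC1 fell by 0.44, 0.51 and 0.50, of which SCO2 shares all of its exon bases with other genes and CMC1 33.4%. SCO2 lost its call with GC and length offsets (-0.26, edgeR adjusted p = 0.214). For complex V, FMC1 was the only 1 of 5 factors called, at 18.4 and 17.7 against 9.48 and 7.87 CPM, a fall of 1.06 (SE 0.206, edgeR adjusted p = 0.00326) with 26.5% of its exon bases shared. HCCS, which attaches haem to cytochrome c, was higher, at 54.1 and 52.5 against 67.0 and 77.9 CPM, by 0.44 (SE 0.123, edgeR adjusted p = 0.0199), and was not called without knockdown 2 (0.33, edgeR adjusted p = 0.0795). Among the further subunits, only ATP5ME of 10 was called, lower by 0.89 (edgeR adjusted p = 0.00546), and 61.3% of its exon bases are shared with MYL5.

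Of 10 tested regulators, POLRMT and NRF1 were lower and PPARGC1B was higher. POLRMT, the RNA polymerase of mitochondria, gave 198 and 183 CPM in the controls and 108 and 91.0 CPM in the knockdown libraries. It fell by 0.93 (SE 0.123, edgeR adjusted p = 0.000323), to 52.4% of control. NRF1 gave 56.1 and 55.3 against 42.2 and 37.0 CPM and fell by 0.49 (SE 0.130, edgeR adjusted p = 0.0159). Among the 8 members with an NRF1 motif in the window, UQCRC1 was lower and the other 7 were not called, beside 13.1% of all tested genes called lower. The lower members SDHC and ATP5F1D had no matched window and could not enter this count. A part of NRF1 in the member changes was not tested. PPARGC1B, a coactivator of these factors, rose by 0.38 (edgeR adjusted p = 0.0481), with 54.3 and 61.5 against 82.4 and 68.5 CPM. That call was lost with DESeq2, with its size factors, with plain library totals, with GC and length offsets, with both corrections for levelling off and without control 1, control 2 or knockdown 1. GABPA, whose motif is given above, was at -0.17 and was not called.

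None of the 6 mitochondrially encoded subunits was called, with changes between -0.05 and -0.01, none had an unadjusted p under 0.05 and DESeq2 called none. MT-CO2 had 1163 and 1172 counts in the controls against 1150 and 1162 (-0.05, edgeR adjusted p = 0.810), and MT-CO3 had 1421 and 1392 against 1401 and 1394 (-0.05, edgeR adjusted p = 0.820). Occupancy of the 6 genes was 84.9% to 103% and the median ratio of counts between the controls was 1.01, so a change in these RNAs was not detectable here. Without control 1 and without control 2, 3 genes of the list stayed lower in each case, SDHAF4, UQCC3 and POLRMT, and none stayed higher.

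**Figure D5:**
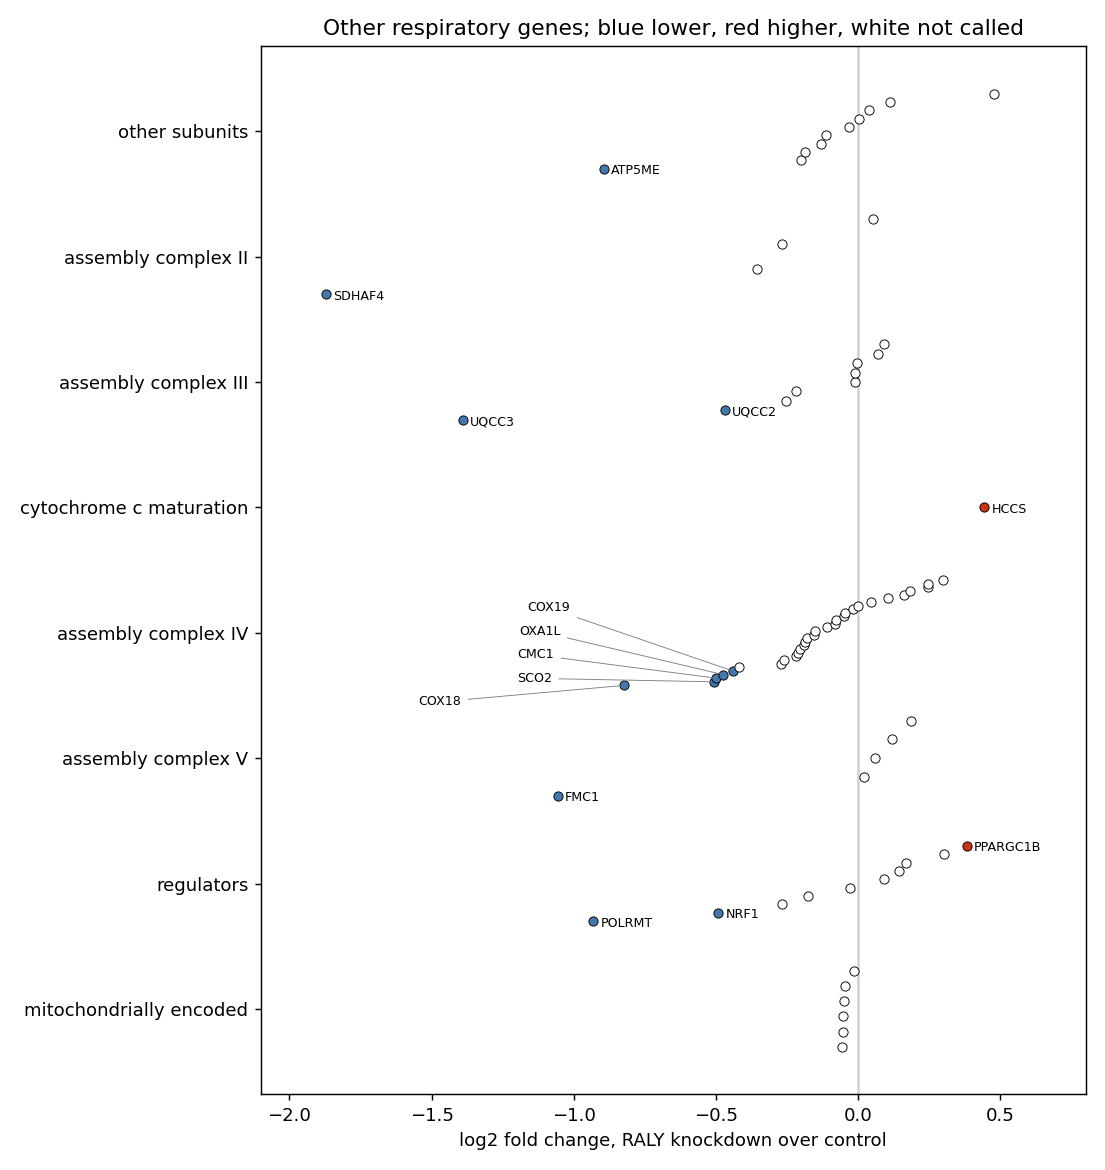
The log2 fold change of knockdown over control is on the x axis and the 75 other tested genes of the pathway are in rows by role, with vertical spacing inside a row used only to separate points. Blue points were lower, red points higher and white points not called. SDHAF4 at -1.87, UQCC3 at -1.39 and FMC1 at -1.06 lie furthest to the left, and the mitochondrially encoded genes sit together just below 0.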

How the data were processed

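The authors deposited raw read counts per gene, with 1 featureCounts-style table for each library, per the file headers. The submitters' processing notes name the build GRCh38 and the tools Subread, featureCounts, SAMtools and HISAT2 2.0.4. The sources used here do not say whether counting used strand or whether duplicate reads were dropped. Of 58884 genes, 58472 matched GENCODE release 44, which gave names, transcript lengths and GC content.

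The test on these counts was made in edgeR 4.0.16 with R 4.3.3 (filterByExpr, TMM, robust quasi-likelihood F test, term for group), with Benjamini-Hochberg adjustment over 19686 genes and calls at an adjusted p under 0.05. CPM uses TMM-scaled totals, on which 3 counts correspond to 0.174 to 0.227 CPM, covering counting error only. With 2 libraries against 2, an exact permutation test could not go below p = 0.333. On simulated counts without levelling off, 100 of 19311 genes were given a true change of 0.5 on the log2 scale and 100 a true change of 1. The procedure called 36% at 0.5, 90% at 1 and 0.0209% of unchanged genes. In these data 25.6% of tested genes were called, a far larger share than was changed in the simulation. The adjustment over all genes depends on that share, so these rates do not carry over to the members. A member that was not called can still have changed. DESeq2 1.42.0, other scalings and filters, a replicate block, left-out libraries, GC and length offsets and 2 corrections for levelling off were alternatives; the correction with the shortest transcript was chosen after seeing the data. Counting noise alone did not cover the difference within pairs of libraries, with a chi-square per degree of freedom of 5.53 between controls and 10.3 between knockdown libraries.

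Members and lists were chosen with earlier results of these data known. Values are given for every called member and the 2 members of each complex with the smallest p, and for every called gene of the other list, or the 2 with the smallest p where none of a role was called. The marker lists held a further gene that is not reported here.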

Additional observations from a re-analysis of the deposited data

How the results depend on the processing

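No result changed direction under any alternative among the genes called here. Leaving out 1 library moved the counts of calls over all genes between 340 and 2908 higher and between 508 and 3351 lower, the members called lower between 0 and 4, and the other pathway genes between 0 and 3 higher and between 3 and 15 lower. The lowest of these counts came without control 1 or without control 2, which leaves 1 control that is assumed to vary like the knockdown pair. UQCRC2 was also lost without knockdown 2 (adjusted p = 0.149, edgeR). Both corrections for levelling off gave 1 member higher, ATP5MC2. The version with the shortest transcript gave 5 lower (SDHA, SDHC, UQCR11, UQCRC1 and UQCRC2) and could not fit ATP5F1D, COX4I1 and CYCS. The other pathway genes called higher were 1 with DESeq2 size factors, 1 with plain library totals, 1 with GC and length offsets, 1 with each correction and 4 with the replicate block. The replicate block called 3518 genes higher and 3536 lower and 5 members lower, SDHA being added (adjusted p = 0.0419, edgeR). Libraries sharing a number had deviations correlated at 0.23 over only 2 pairs, so the numbers are treated as names. DESeq2's Wald test called 1824 higher and 2119 lower, and the same 4 members lower. The median change of the members lay between -0.25 and -0.04 over all alternatives. Levelling off limits what can be seen in members with a high occupancy, and the cause of the differences between settings was not tested.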
